A study of Rattus norvegicus with 3 samples.

Results

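The genes described here make, break down and act on the cyclic nucleotides cAMP and cGMP in rat brainstem. A gene was a member if its symbol was Pde or Adcy followed by a digit, or began with Gucy, Prkac, Prkar or Prkg, which gave 48 of the 14217 genes with a single symbol on the array. They were 24 phosphodiesterase symbols, 8 adenylyl cyclases, 9 guanylyl cyclase genes, 6 subunits of protein kinase A (PKA) and 1 gene of protein kinase G (PKG). Adcy1, Adcy7 and Prkg1 were not analysed here, and neither was Pde11a, for which the 3 probe sets carry a second symbol. Of the 48 members, 28 had a mean log2 signal at or above a floor of 7.44, the median over all probe sets that are not controls, and 20 lay under it.

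The series holds 3 Affymetrix arrays of rat brainstem, 1 labelled Sham, 1 labelled TBI (traumatic brain injury) and 1 labelled Hand Acu (hand acupuncture). Tissue was taken 1 h after modelling, and the brainstem samples of 5 rats were mixed before RNA was extracted, which is read here as 1 pool for each group. The labels give no strain, sex or age, do not say how injury was made or where needles were placed, and do not state if animals of the acupuncture group had an injury as well. Each value below is therefore a single array of pooled tissue, no difference has an error of its own, and no test was run. The number of arrays limits the precision.

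In neurons, adenylyl cyclases make cAMP under the control of stimulatory and inhibitory G proteins, while guanylyl cyclases make cGMP, the soluble form in answer to nitric oxide and the membrane forms in answer to peptides. Phosphodiesterases break both messengers down, and their families differ in which one they take and in the cells that hold them. cAMP releases the catalytic subunits of PKA from regulatory subunits, and PKA phosphorylates channels, receptors and the transcription factor CREB, which binds the cAMP response element of promoters. cGMP activates PKG and also gates the channels of photoreceptors.

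Among the 28 members above the floor, those whose values differed most between the arrays were Pde6g and Pde10a. The promoter of Pde10a is shown because the gene differed between arrays in both of its probe sets and because its letters come close to the palindromic cAMP response element, TGACGTCA. Capitals mark TGACGTC and its reverse complement GACGTCA, each 1 letter short of that element. The 250 bases before the gene's start in RefSeq's build GRCr8 read, 5′ to 3′:
Pde10a, chr1:54765669-54765918, minus strand: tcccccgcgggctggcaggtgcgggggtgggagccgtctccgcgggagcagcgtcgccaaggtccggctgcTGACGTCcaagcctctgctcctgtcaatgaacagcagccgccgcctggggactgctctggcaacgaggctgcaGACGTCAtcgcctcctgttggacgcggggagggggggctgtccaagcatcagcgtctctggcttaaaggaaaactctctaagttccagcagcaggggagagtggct
Counted from the start, with -1 for the base just before it, the first match begins at -179 and the second at -106. RefSeq lists 2 starts for Pde10a, and the window of the other start did not hold these letters. Of 33469 promoter windows of 300 bases in that table, 3.22% held TGACGTC on either strand, and 2 of the 45 windows of members did, in Pde10a and Pde4a. The full TGACGTCA was in 1.83% of all windows and in 0 of those 45, which belong to 33 of the 48 members. The shorter core TGACG, which every one of the longer matches contains, was in 21.2% of all windows and in 20.0% of the members' windows.

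The next 4 windows show, in capitals, a match before the start of members that were above the floor and less than 1.5-fold apart on every pair of arrays, so that they can be read against Pde10a. It is the longer GACGTCA in Pde4a and the core, on either strand, in the others. Prkacb, also above the floor, held the core only after its start and is not shown. A match in these letters is a description of sequence and no evidence of binding:
Pde4a, chr8:27999381-27999410, plus strand: gtggcacagctcGACGTCAggctggggagg
Pde4d, chr2:42592506-42592535, plus strand: gtctcccgagctCGTCAagtgatctttggc
Pde8a, chr1:144575371-144575400, plus strand: ggccgcgcttccTGACGcgagacccgcgct
Prkaca, chr19:41083365-41083394, minus strand: gtctgcaactcgCGTCActcatccaggagc

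Over the 28 members above the floor, most transcripts differed little. Between the TBI and Sham arrays 24 of them lay within 0.25 of 0 on the log2 scale, where 82.5% of the 9241 genes above the floor did. For Hand Acu against TBI 25 of 28 did so (85.7% of all genes), and for Hand Acu against Sham again 25 (81.9% of all genes). The members at least 1.5-fold apart were 2 for TBI minus Sham, both with phosphodiesterase symbols and both higher. Of all genes above the floor 1.55% were that far apart in either direction, and 0.866% were that much higher. Adcy9, above the floor on Sham alone, was kept out of the count of members by its mean and is read below. For Hand Acu minus TBI no member was 1.5-fold apart, against 1.21% of all genes. For Hand Acu minus Sham 1 member was, Pde6g, against 1.89% of all genes and 0.996% that were higher.

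Smaller differences leaned upward on the Hand Acu array. It was higher than TBI in 20 of 28 members (49.3% of all genes), with a median log2 difference of 0.06 where all genes had −0.0024. It was also higher than Sham in 20 of 28 (51% of all genes), with a median of 0.10 where all genes had 0.0037. For TBI minus Sham 17 of 28 were higher (51% of all genes) and the median was 0.03, against 0.0043 in all genes. Hand Acu was the highest of the 3 arrays for 16 of 28 members (32.3% of all genes), and Sham was the lowest for 15 (36.3% of all genes). The 3 comparisons share arrays, so these counts are not independent of each other. With a gene's probe sets averaged in place of the brightest, the share of members higher was 52.2% for Hand Acu minus TBI and also 52.2% for Hand Acu minus Sham, where it had been 71.4% in both.

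**Figure D1:**
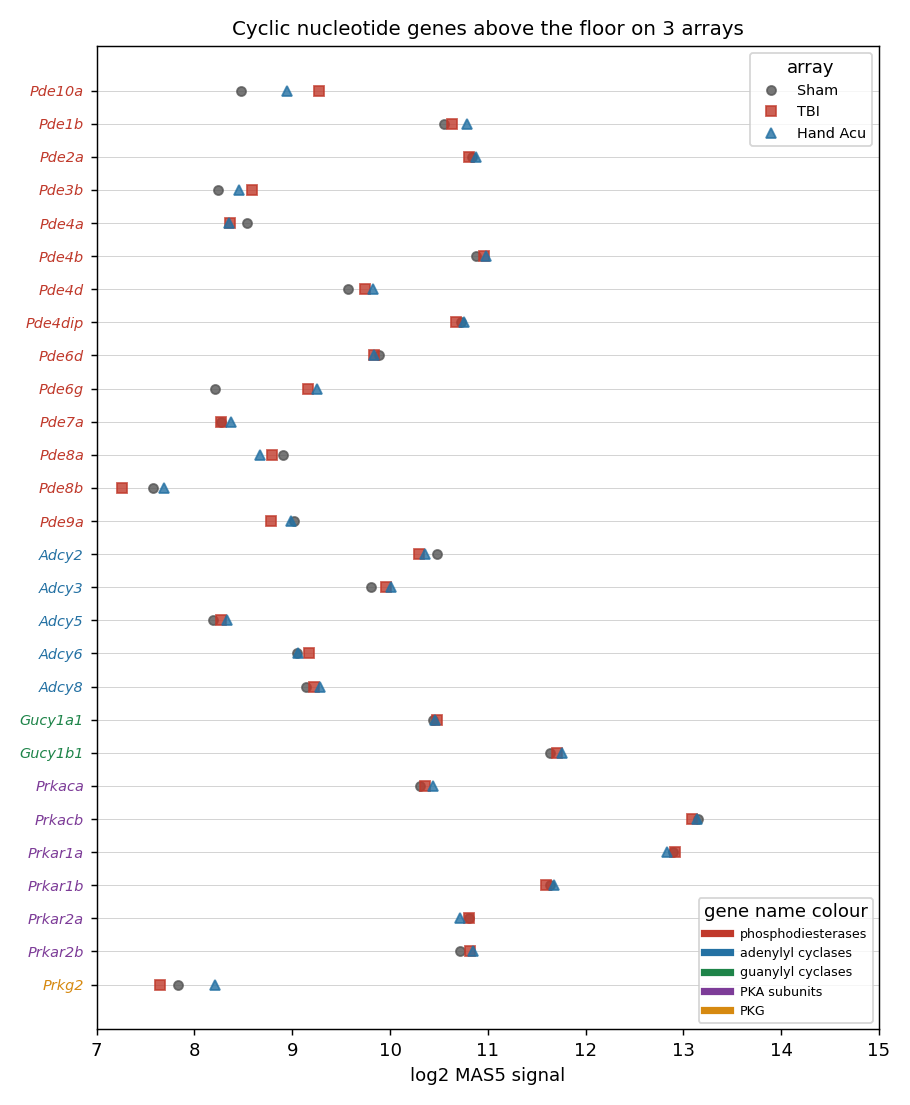
Log2 MAS5 signal of the 28 members above the floor on the Sham (circle), TBI (square) and Hand Acu (triangle) arrays, 1 value for each array, with gene names coloured by role. Pde6g and Pde10a have the widest spans, with Sham at the low end; levels of different genes come from different probes and are not comparable.

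Phosphodiesterase symbols gave both members past 1.5-fold, Pde10a and the inhibitory subunit Pde6g. Of the 24 symbols 14 were above the floor, of which 7 were higher and 7 lower on the TBI array than on the Sham array, with a median of −0.02. On the Hand Acu array 10 of 14 were higher than TBI, with a median of 0.08, and 10 of 14 were higher than Sham, with a median of 0.10.

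Pde6g encodes the inhibitory gamma subunit of the rod photoreceptor phosphodiesterase, which holds that enzyme in check until transducin removes it. Its log2 signal was 8.21 on Sham, 9.16 on TBI and 9.25 on Hand Acu. Sham was low, and the other two arrays lay close to each other. TBI was 1.93-fold higher than Sham (log2 difference 0.95) and Hand Acu 2.06-fold higher (1.04), while Hand Acu minus TBI was 0.09. Among the 924 genes of like mean signal, 1 of 10 equal bins of the genes above the floor, 2 were at least as far above 0 for TBI minus Sham, Pde6g included, and the central 95% of them ran from −0.39 to 0.43. A single probe set stood for this gene, so no second probe set could be read beside it. Pde6a and Pde6b, of the same enzyme family, lay under the floor, with mean log2 signals of 3.84 and 2.75.

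Pde10a hydrolyses both cAMP and cGMP and is best known from the medium spiny neurons of the striatum. Its log2 signal was 8.48 on Sham, 9.27 on TBI and 8.95 on Hand Acu. TBI was thus the highest and Sham the lowest, with Hand Acu between them. The difference was 0.80 for TBI minus Sham (1.74-fold), −0.32 for Hand Acu minus TBI and 0.47 for Hand Acu minus Sham (1.39-fold). Its second probe set read 7.45, 8.18 and 7.94 on the Sham, TBI and Hand Acu arrays. That is the same order, with differences of 0.73, −0.24 and 0.49. Among 924 genes of like signal, 4 were at least as far above 0 for TBI minus Sham and 21 for Hand Acu minus Sham, Pde10a included in each count.

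**Figure D2:**
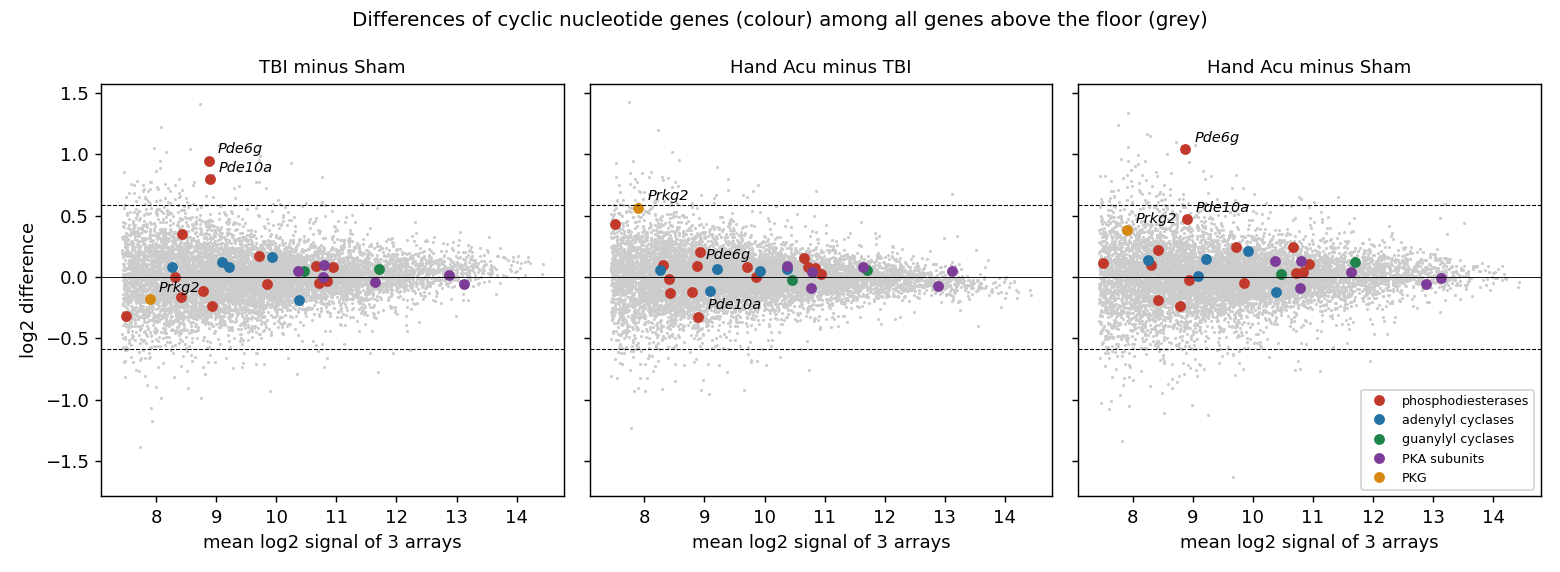
Log2 difference against mean log2 signal for TBI minus Sham, Hand Acu minus TBI and Hand Acu minus Sham, with members coloured by role, all other genes above the floor in grey and dashed lines at 1.5-fold. Pde6g (0.95) and Pde10a (0.80) lie above the upper line for TBI minus Sham, Pde6g (1.04) does so for Hand Acu minus Sham, and Prkg2 (0.57) lies just under it for Hand Acu minus TBI.

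Markers of other tissue were read beside these differences. Of 12 genes that mark striatum and forebrain, 10 were measured and 9 passed the floor, and TBI exceeded Sham in 7 of those 9, with a median of 0.26 where all genes had 0.0043. Adora2a, the adenosine receptor of striatal neurons, was 0.75 higher and Ppp1r1b, the PKA substrate DARPP-32, 0.60 higher, while Neurod2, of cortical neurons, differed by −0.56. Between these, Rgs9 was 0.47, Drd1 0.34, Drd2 0.26 and Penk 0.23 higher, with Foxp1 at 0.02 and Neurod6 at −0.08. For Hand Acu minus Sham 6 of 9 were higher, with a median of 0.23. Hand Acu minus TBI was above 0 in 4 and below it in 5, with a median of −0.02, where Pde10a differed by −0.32. The log2 of the list's summed signal was 12.86 on Sham, 13.11 on TBI and 13.11 on Hand Acu. Tbr1, a cortical marker, was the measured gene of the list under the floor. The part of these markers in the Pde10a difference was not tested.

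Genes that mark the pineal gland and photoreceptors were set beside Pde6g in the same way. Of 14, 12 were measured and only Gnb3, a G protein beta subunit of cones, was above the floor, at 7.25 on Sham, 7.97 on TBI and 8.21 on Hand Acu. Its differences were 0.72 for TBI minus Sham and 0.96 for Hand Acu minus Sham. Gnb3 was under the floor on Sham and passed it on average through the other arrays, so that Sham is its low array follows in part from the filter. Of the 12 measured genes, 8 were higher on TBI than on Sham (51.6% of all genes with no floor). For Hand Acu minus Sham 11 of the 12 were higher (53.7% of all genes with no floor). The log2 of their summed signal was 8.71, 9.34 and 9.72 on Sham, TBI and Hand Acu. The defining pineal genes Aanat and Asmt, the photoreceptor factor Crx and Sag, the gene of arrestin, all lay under the floor on average, where values are erratic. The part of these cells in the Pde6g difference was not tested.

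**Figure D3:**
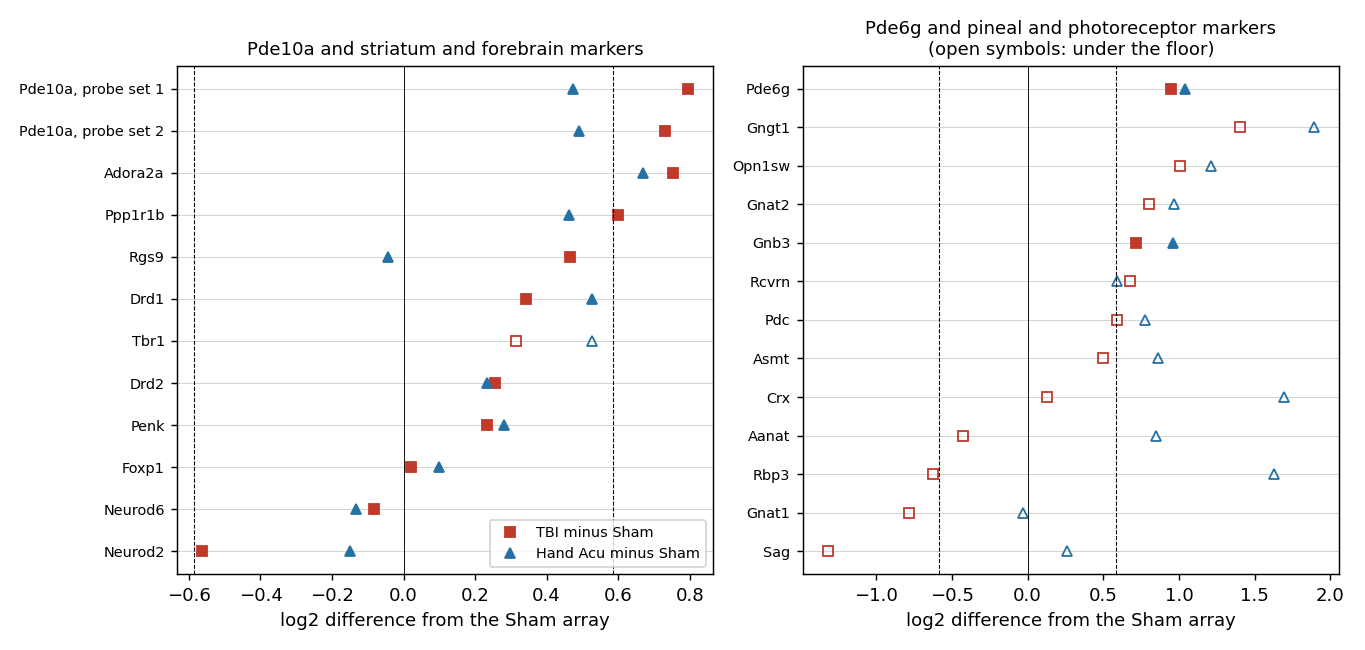
Log2 difference from the Sham array on the TBI (square) and Hand Acu (triangle) arrays, on the left for the 2 probe sets of Pde10a and the striatum and forebrain markers, on the right for Pde6g and the pineal and photoreceptor markers, with open symbols for genes under the floor and dashed lines at 1.5-fold. For TBI minus Sham both probe sets of Pde10a lie near Adora2a and Ppp1r1b, the highest of the striatum and forebrain markers, and the other markers of that list lie lower. Pde6g lies near Gnb3, with all other photoreceptor markers under the floor.

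The labelled tissue was checked against its own markers and those of neighbouring tissue. Of 13 brainstem neuron markers 10 were measured and 4 were above the floor, namely Slc6a4, Th, Chat and Hoxa5, while the noradrenergic genes Dbh, Slc6a2 and Phox2a, the serotonergic factor Fev, the glycine transporter gene Slc6a5 and Hoxc4 were under it. These 4 were higher on TBI than on Sham (51% of all genes), with a median of 0.36. For Hand Acu minus Sham 3 of 4 were higher (51% of all genes), with a median of 0.31. Among them Hoxa5 read 7.35, 8.57 and 8.34 on Sham, TBI and Hand Acu, and was likewise under the floor on Sham. Cerebellum markers stood lower on TBI than on Sham in 11 of 11 genes above the floor, with a median of −0.55. For Hand Acu minus Sham 10 of 11 were lower, with a median of −0.69. The log2 of the summed signal of cerebellum markers was 14.77, 14.29 and 14.23 on Sham, TBI and Hand Acu. For brainstem neuron markers it was 10.60, 11.03 and 10.93, though levels of different genes come from different probes. Cerebellum transcripts were thus strong on all 3 arrays. For TBI minus Sham the median was 0.04 for neuron, 0.07 for oligodendrocyte, 0.03 for astrocyte and 0.08 for microglia markers, −0.14 for endothelium, −0.21 for smooth muscle and pericyte, and 0.33 for blood markers. In such pools fewer cells of a type and less RNA in each cell cannot be told apart. Beta-actin signal from the 3′ end exceeded that from the 5′ end 5.58-fold on Sham, 6.37-fold on TBI and 6.69-fold on Hand Acu, a measure of how intact the RNA was. The same measure for Gapdh was 1.25, 1.20 and 1.28, lowest on TBI, and did not follow the order of beta-actin. The part of tissue makeup and RNA integrity in the members' differences was not tested.

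The families that take cAMP alone are PDE4, PDE7 and PDE8, with 6 of 8 members above the floor. Of these 3 were higher and 3 lower for TBI minus Sham, and 4 of 6 were higher for Hand Acu minus TBI and for Hand Acu minus Sham. Pde8b, a high-affinity enzyme for cAMP, read 7.58 on Sham, 7.26 on TBI and 7.69 on Hand Acu. TBI was low, by −0.32 against Sham, and Hand Acu was 0.43 above TBI, but this probe set lay barely above the floor on average and was under it on TBI. Pde4d, a major cAMP phosphodiesterase of neurons, read 9.57 on Sham, 9.74 on TBI and 9.82 on Hand Acu, so that both other arrays were above Sham, by 0.17 and 0.25. Pde4b, another member of that family, differed by at most 0.11 on its brightest probe set. Pde8a, Pde4a and Pde7a differed by −0.23, −0.19 and 0.10 for Hand Acu minus Sham.

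Families that take both messengers had 4 of 7 members above the floor, Pde10a among them. Pde3b, which cGMP inhibits and which insulin signalling activates, read 8.24 on Sham, 8.59 on TBI and 8.46 on Hand Acu. Its order was that of Pde10a, with a difference of 0.35 for TBI minus Sham and 0.22 for Hand Acu minus Sham. Pde1b, a calmodulin-dependent enzyme that is abundant in striatum, read 10.55, 10.64 and 10.79 on Sham, TBI and Hand Acu. Pde1b was thus highest on Hand Acu, by 0.24 over Sham. Its second probe set, under the floor, differed by −1.72 for Hand Acu minus Sham, so the mean of its probe sets was −0.74. Pde2a, which cGMP stimulates, differed by at most 0.07 between any pair of arrays.

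Of the families that take cGMP, Pde9a and the inhibitory subunit Pde6g were above the floor. TBI was the low array for Pde9a, a high-affinity enzyme for cGMP, with a difference of −0.23 from Sham and, for Hand Acu minus TBI, one of 0.21. The rule on symbols also took in Pde6d, a carrier of prenylated proteins, and Pde4dip, the gene of the scaffold myomegalin. Neither breaks down cyclic nucleotides. Pde12, under the floor, was likewise counted in none of the families that take cAMP, cGMP or both. Pde6d differed by −0.05 for TBI minus Sham and Pde4dip by −0.05.

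All 5 adenylyl cyclases above the floor lay within 0.25 of 0 in every comparison. Of these, 4 were higher on TBI than on Sham and 4 were higher on Hand Acu than on Sham, with medians of 0.08 and 0.14. Adcy3, a cyclase found in the primary cilia of neurons, read 9.80 on Sham, 9.96 on TBI and 10.01 on Hand Acu. Adcy8, which calcium and calmodulin stimulate, read 9.14, 9.22 and 9.28 in the same order of arrays. Adcy5, the main cyclase of striatal neurons, read 8.19, 8.27 and 8.33. In these 3 genes Sham was lowest and Hand Acu highest, by 0.21, 0.15 and 0.14 over Sham. Adcy2, which G protein beta-gamma subunits stimulate, went the other way, at 10.48 on Sham, 10.29 on TBI and 10.36 on Hand Acu. Adcy6, which calcium inhibits, read 9.05, 9.17 and 9.06, so that Sham and Hand Acu were close and TBI was 0.12 above Sham. Adcy9 passed the floor on Sham alone, at 7.88, with 6.80 on TBI and 7.16 on Hand Acu. Against Sham it was thus low on both other arrays, at −1.07 on TBI and −0.72 on Hand Acu. Its mean of 7.28 fell under the floor through those arrays. That all cyclases counted above the floor lay close to 0 therefore follows in part from the filter.

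Of 9 guanylyl cyclase genes 2 were above the floor, and they encode the 2 chains of the soluble enzyme that nitric oxide activates. Gucy1a1, its alpha chain, read 10.44 on Sham, 10.48 on TBI and 10.46 on Hand Acu. Gucy1b1, its beta chain, read 11.64, 11.71 and 11.76. On the brightest probe sets neither chain differed by more than 0.12 in any comparison. The second probe set of each went the opposite way from its first for TBI minus Sham, at −0.05 for Gucy1a1 and −0.04 for Gucy1b1. It did so for Hand Acu minus Sham as well, at −0.13 and −0.16, where the brightest gave 0.02 and 0.12. All 5 membrane guanylyl cyclases among the members, Gucy2c, Gucy2d, Gucy2e, Gucy2f and Gucy2g, were under the floor, as were the soluble chains Gucy1a2 and Gucy1b2. Npr1 and Npr2, receptors with guanylyl cyclase activity that the rule on symbols did not take in, were above the floor and are read below.

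All 6 PKA subunits were above the floor, and on their brightest probe sets none differed by more than 0.13 in any comparison. Prkaca, the catalytic alpha subunit, read 10.31 on Sham, 10.35 on TBI and 10.44 on Hand Acu. Prkacb, the catalytic beta subunit, read 13.14, 13.09 and 13.14. Among the regulatory subunits, which hold the kinase inactive, Prkar2b, a form enriched in neurons, read 10.72, 10.81 and 10.85. Prkar2a read 10.81, 10.81 and 10.72. The type I subunits are Prkar1a, which read 12.89, 12.91 and 12.84, and Prkar1b, which read 11.63, 11.60 and 11.68. The median over the PKA subunits was 0.0090 for TBI minus Sham, 0.04 for Hand Acu minus TBI and 0.02 for Hand Acu minus Sham. Further probe sets of Prkacb above the floor gave 0.10 and −0.21 for TBI minus Sham, where the brightest gave −0.06. Those of Prkar1a gave −0.03 and −0.23 for Hand Acu minus TBI, where the brightest gave −0.07.

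Prkg2, the membrane-bound form of PKG, read 7.83 on Sham, 7.65 on TBI and 8.21 on Hand Acu. Hand Acu was high and TBI low, so that Hand Acu minus TBI was 0.57 (1.48-fold), just under the 1.5-fold mark, and Hand Acu minus Sham was 0.38. Prkg2 lay in the lowest of the 10 bins by signal, where the central 95% of 925 genes ran from −0.57 to 0.56 for this comparison and 24 of them, Prkg2 included, were at least as far above 0.

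Members with several probe sets show how far readings of the same gene can part. Above the floor 7 members had 9 further probe sets, of which 4 went the way of the brightest for TBI minus Sham, 4 for Hand Acu minus TBI and 3 for Hand Acu minus Sham. The median gap between a further probe set and the brightest was 0.10 for TBI minus Sham and the largest was 0.59, in Pde4dip. Pde4dip differed by −0.05 on its brightest probe set and by 0.54 on the other, and Pde4b by 0.08 and −0.36. The probe sets of Pde10a stood closer, at 0.80 and 0.73.

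**Figure D4:**
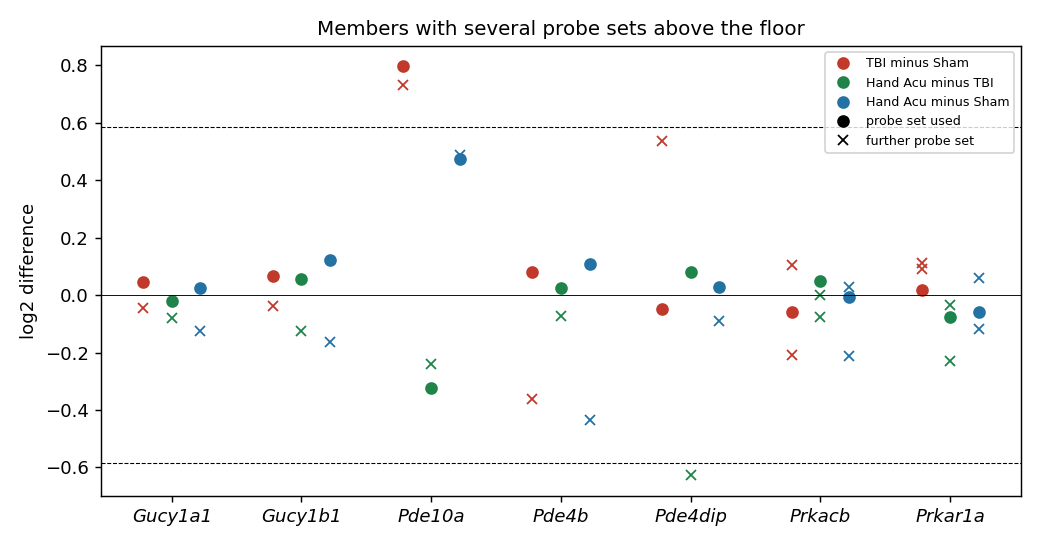
Log2 differences of the 7 members with more than 1 probe set above the floor, with filled circles for the brightest probe set, crosses for further ones, colours for the 3 comparisons and dashed lines at 1.5-fold. The probe sets of Pde10a lie close together (0.80 and 0.73 for TBI minus Sham), whereas those of Pde4dip (−0.05 and 0.54) and Pde4b (0.08 and −0.36) lie apart.

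The 20 members under the floor had mean log2 signals from 1.21 to 7.31. Besides the guanylyl cyclases already named they were Adcy4, Adcy9 and the soluble cyclase Adcy10, Pde1a, Pde1c, Pde3a, Pde4c, Pde5a, Pde6a, Pde6b, Pde6h, Pde7b and Pde12. Their differences ran from −2.41 (Gucy2c) to 2.31 (Gucy2f) for TBI minus Sham and from −4.27 (Pde3a) to 3.15 (Pde5a) for Hand Acu minus Sham, and 8 of 20 and 9 of 20 were at least 1.5-fold apart, where 35.9% and 37.4% of the 4976 genes under the floor were. Near background MAS5 values scatter widely, and these differences are given as a description of that range.

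Other genes of the pathway were read from 8 lists with 77 genes, of which 73 were measured and 47 were above the floor. For TBI minus Sham 25 were higher and 22 lower, 1 of them by 1.5-fold, Ppp1r1b, and the median was 0.01. For Hand Acu minus TBI 23 were higher and 24 lower, with a median of −0.01, and for Hand Acu minus Sham 29 were higher and 18 lower, with a median of 0.01. In the last 2 comparisons none reached 1.5-fold (all genes 1.21% and 1.89%).

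Upstream of the cyclases, the 6 G protein alpha subunits above the floor, which stimulate or inhibit adenylyl cyclase, lay between −0.15 and 0.14 in every comparison, and Gnai1, an inhibitory one, differed by −0.15 for TBI minus Sham. Of 13 genes of nitric oxide synthases, natriuretic peptides, guanylins and their receptors and activators, Npr1 and Npr2, receptors with guanylyl cyclase activity, were above the floor. Npr1 read 7.46 on Sham, 7.60 on TBI and 7.95 on Hand Acu, so Hand Acu was high, by 0.49 over Sham.

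Downstream, Hcn2, a cyclic nucleotide-modulated pacemaker channel, differed by −0.31 for Hand Acu minus TBI and had the largest difference of the 4 other effectors above the floor. All 3 PKA inhibitor genes were lower on TBI than on Sham, and Pkib read 9.37 on Sham, 8.98 on TBI and 8.97 on Hand Acu. Sham was thus the high array for Pkib, by 0.39 and 0.40. Of 10 A-kinase anchors above the floor, which tether PKA, Gskip differed most, at 0.38 for TBI minus Sham and −0.37 for Hand Acu minus TBI.

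CREB and its coactivators went both ways. Of 8 genes 4 were higher and 4 lower for TBI minus Sham, with a median of −0.03. Crtc1, a coactivator that cAMP and calcium send to the nucleus, read 8.71 on Sham, 8.26 on TBI and 8.18 on Hand Acu, and differed by −0.54 for Hand Acu minus Sham. Crem, whose short form represses cAMP-driven transcription, read 9.94, 10.46 and 10.16 and was named after its values were seen. Creb1, the gene of CREB, was likewise added and read 8.71 on Sham, 8.27 on TBI and 8.76 on Hand Acu. TBI was thus the high array for Crem and the low one for Creb1. Of the kinase substrates, Ppp1r1b read 9.59 on Sham, 10.18 on TBI and 10.05 on Hand Acu, 5 of 6 were higher on TBI than on Sham, and the list's median was 0.06.

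Of 8 genes that cAMP can induce, 4 were higher and 4 lower on TBI than on Sham, with a median of 0.05, and 6 of 8 were higher on Hand Acu than on Sham, with a median of 0.15. Fos, an immediate early gene, read 10.35 on Sham, 10.83 on TBI and 10.82 on Hand Acu on its brightest probe set, while the mean of its probe sets differed by −0.44 for TBI minus Sham. The direction for Fos therefore turned when its probe sets were averaged. Whether its other probe sets lay above the floor is not given here.

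**Figure D5:**
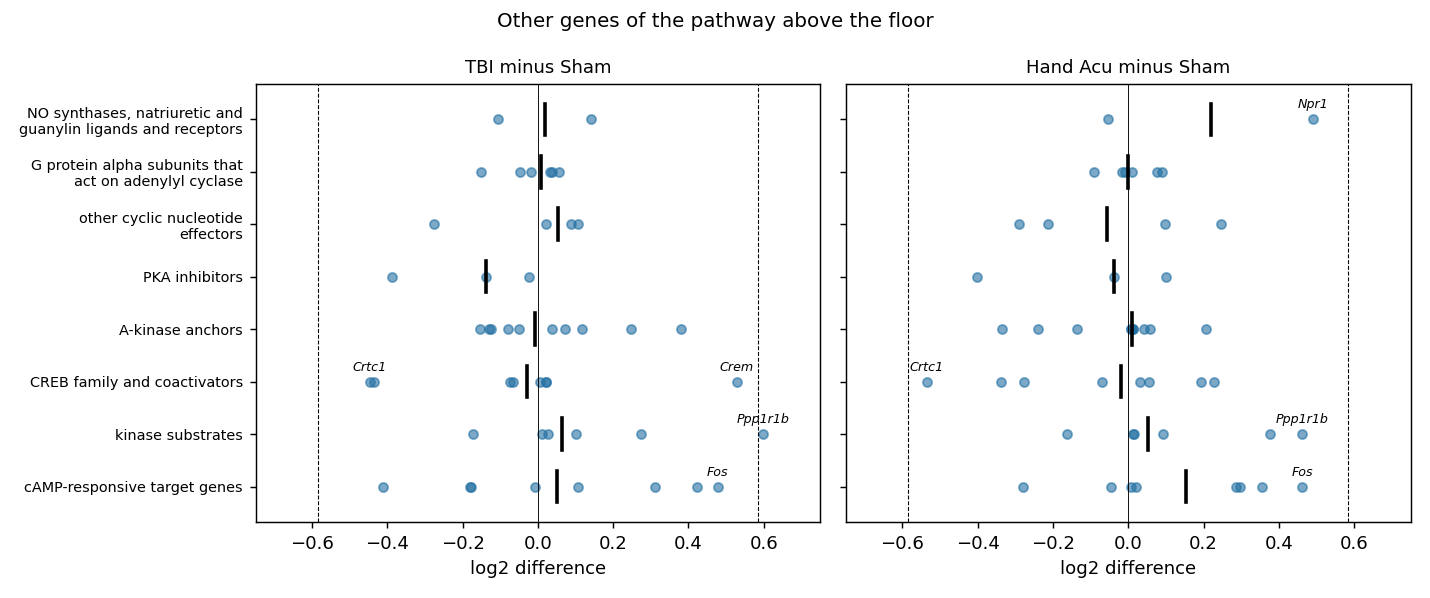
Log2 differences of the 47 other pathway genes above the floor in 8 lists, for TBI minus Sham and Hand Acu minus Sham, with 1 point for each gene, a black bar at each list's median and dashed lines at 1.5-fold. Most genes lie near 0, Ppp1r1b passes 1.5-fold for TBI minus Sham (0.60), and Crtc1 is the lowest for Hand Acu minus Sham (−0.54).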

How the data were processed

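Biotin-labelled RNA, made from 6 µg of total RNA per the labels' protocols, was measured on 3 arrays of 31099 probe sets. The submitters' processing notes name MAS5, Affymetrix's summary of a probe set, without a version. The table the authors deposited was taken as log2 signal, because 2 to the power of its values had a mean of 500 on each array after trimming 2% at both ends, the usual MAS5 scaling. Names came from the platform annotation of 2016, and all 48 members matched RefSeq's GRCr8 table by identifier. Where a gene had several probe sets with a single symbol, the brightest by mean stood for it. Pairs of arrays were subtracted as deposited, with no test and no p-value. Every member was named. Values on each array were given for members at least 1.5-fold apart and for up to 6 members of each role with the largest difference. Among members under the floor they were given for Adcy9, which was added after its values were seen. Pathway genes were named if 1.5-fold apart or the largest of their list, and Crem and Creb1 were added after their values were seen. The members and lists were chosen with earlier results of these data known. Genes of like signal are 1 of 10 equal bins, by mean signal, of the 9241 genes above the floor. The scripts used Python 3.11.15 (numpy 2.4.6, pandas 2.3.3, matplotlib 3.10.9) and were tested on simulated data.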

Additional observations from a re-analysis of the deposited data

How the results depend on the processing

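The alternatives were a quantile normalization, a centring of each array's median, no floor or a floor raised to 9.25, 50 added to the signal before taking log2, averaging the probe sets of each gene, a 2-fold threshold and, for the share of members higher, leaving out Pde4dip or, chosen after seeing the data, Pde4dip, Pde12 and Pde6d. Under quantile normalization, centring and the offset, the counts of members past 1.5-fold were those of the report in all 3 comparisons. With the raised floor, which left 16 members and neither Pde6g nor Pde10a, 0 members were 1.5-fold higher for TBI minus Sham and 0 for Hand Acu minus Sham, and the median for the latter was 0.041. With no floor, which adds the 20 members near background, 6 of 48 were 1.5-fold higher and 4 lower for TBI minus Sham (7.19% and 6.37% of all genes), 7 higher and 2 lower for Hand Acu minus TBI (7.98% and 5.26%), and 7 higher and 3 lower for Hand Acu minus Sham (8.83% and 5.49%). With averaged probe sets, 23 members were above the floor, the medians were 0.0040 for Hand Acu minus TBI and 0.040 for Hand Acu minus Sham, and 1 member, Pde1b, was 1.5-fold lower in each, at −0.997 and −0.74. At 2-fold 0 members were apart for TBI minus Sham and 1 for Hand Acu minus Sham. Pde6g for TBI minus Sham ran from 0.84 to 0.97 and Pde10a from 0.72 to 0.81 under the alternatives that left them above the floor. No paired analysis was possible because each group has 1 array. Low signal over background limits the 20 members under the floor.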
